A study of Mus musculus with 4 samples.

Results

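The genes described here are the enzymes of lipolysis and their control by adrenergic signals, in nuclei of the fat layer of the mouse thymus and of epigonadal fat. They were taken by symbol and make 10 of the 32285 genes in the RNA tables: Pnpla2, Abhd5, G0s2, Lipe, Mgll, Aqp7, Adrb3, Adrb1, Pde3b and Adora1. RNA was measured in single nuclei in 2 libraries of 4-month male mice, 1 made from 6 pooled thymi and 1 from epigonadal white adipose tissue. Chromatin accessibility came from a multiome library of 16 pooled thymi of 6-month females. All samples are labelled WT and Naïve, the thymi came from C57/BL6 mice kept on chow, and how many animals gave the epigonadal fat is not stated in the labels. Fat around the thymi was removed, the tissue was digested with collagenase and DNase, and nuclei were taken from the floating layer. The RNA matrix of the multiome library was not analysed here. Each group is 1 library, so no comparison below has a replicate check, a test or a p-value. The limits in parentheses are exact 95% intervals of the counts and cover counting error only.

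Lipolysis is the release of fatty acids and glycerol from the triglyceride of the lipid droplet. In fat cells Pnpla2 (adipose triglyceride lipase) makes the first cut, Lipe (hormone-sensitive lipase) the second and Mgll (monoglyceride lipase) the last, and Aqp7 lets glycerol leave the cell. Abhd5 activates Pnpla2 and G0s2 inhibits it. Catecholamines start the process through the beta receptors Adrb3 and Adrb1, which raise cyclic AMP and so activate protein kinase A, while Pde3b, the phosphodiesterase through which insulin acts, degrades cyclic AMP and the adenosine receptor Adora1 lowers its synthesis.

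Levels are UMIs (unique RNA molecules) summed over the nuclei that carry a label of the authors, per 1000000 nuclear-encoded UMIs of the same sum (CPM). The thymic library had 365 labelled nuclei with 534972 nuclear-encoded UMIs and the epigonadal library 1564 with 2157889. The authors' labels are Ad Ia and Ad Ib, joined below as Ad I, and Ad IIa with Ad IIb and Ad IIc. Thymic Ad I held 84 nuclei and 52241 UMIs against 258 nuclei and 263848 UMIs in epigonadal Ad I, which limits the precision of thymic Ad I values. The mitochondrial share was 14.7% in thymic and 5.58% in epigonadal Ad I, and its part in the results was not tested. The 2 matrices shared 147 barcodes, none was labelled in both, and 50 nuclei labelled epigonadal also had a barcode in the thymic matrix.

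The label adipocyte was checked against 9 adipocyte markers (Adipoq, Plin1, Plin4, Cidec, Lep, Retn, Cfd, Car3 and Acvr1c; Fabp4, which capillary endothelium also expresses, left out) and 10 endothelial markers. The summed adipocyte markers were at 10593 CPM in thymic Ad Ia and 2766 CPM in Ad Ib, but at 523 CPM in Ad IIa, 185 CPM in Ad IIb and 1272 CPM in Ad IIc, where the unlabelled thymic barcodes had 2314 CPM. Endothelial markers ran the other way, at 72.3 CPM in thymic Ad Ia and 2563 CPM in Ad Ib against 9585 CPM in Ad IIa, 10030 CPM in Ad IIb and 8533 CPM in Ad IIc, with 10 of 10 markers present in each of the last 3. In epigonadal fat the adipocyte markers lay between 4547 CPM in Ad IIb and 51948 CPM in Ad IIc, and endothelial markers between 439.8 CPM in Ad IIc and 9358 CPM in Ad IIb. Thymic Ad IIa, Ad IIb and Ad IIc are therefore called by label only, since their markers go against the name adipocyte. Lep was at 0 in every thymic label.

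Promoter sequences were held for 8 of the 10 genes in the RefSeq promoter table (build GRCm38.p6, the build of the chromatin fragments), in 12 windows of 300 bases. Adrb3 and Pde3b had no entry. The 4 shown are the 2 RefSeq starts of Lipe, the second of which had the highest level of the 12 windows in thyAD I and thyAD II, the chromatin groups described below, and the starts of Pnpla2 and Abhd5, the lipase and its activator. Each is the stretch of 250 bases before the start, 5′ to 3′ on the strand of the gene. Capitals mark matches, on either strand, to GGGCGG (GC box), CACGTG (E-box), TGTTTAC (forkhead), AGGTCA (core of nuclear receptor sites) or TGACG (core of the cAMP response element, also part of the full element TGACGTCA).
Lipe start 1, chr7:25395988-25396237, minus strand: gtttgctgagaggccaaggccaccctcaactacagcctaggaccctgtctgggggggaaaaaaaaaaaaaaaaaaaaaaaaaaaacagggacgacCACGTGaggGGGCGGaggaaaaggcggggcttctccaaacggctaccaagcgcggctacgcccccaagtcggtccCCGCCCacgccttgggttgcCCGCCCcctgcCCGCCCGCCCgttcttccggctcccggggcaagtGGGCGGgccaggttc
Lipe start 2, chr7:25390113-25390362, minus strand: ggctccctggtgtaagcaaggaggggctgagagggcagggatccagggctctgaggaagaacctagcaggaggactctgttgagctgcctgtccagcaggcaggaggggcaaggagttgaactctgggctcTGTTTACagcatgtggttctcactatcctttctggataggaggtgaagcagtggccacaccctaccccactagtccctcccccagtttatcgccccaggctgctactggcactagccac
Pnpla2, chr7:141454938-141455187, plus strand: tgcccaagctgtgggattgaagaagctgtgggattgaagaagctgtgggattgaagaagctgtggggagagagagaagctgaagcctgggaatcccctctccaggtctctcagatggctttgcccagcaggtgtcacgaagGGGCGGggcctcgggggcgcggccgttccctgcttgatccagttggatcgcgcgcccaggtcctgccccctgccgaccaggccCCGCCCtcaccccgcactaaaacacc
Abhd5, chr9:122351366-122351615, plus strand: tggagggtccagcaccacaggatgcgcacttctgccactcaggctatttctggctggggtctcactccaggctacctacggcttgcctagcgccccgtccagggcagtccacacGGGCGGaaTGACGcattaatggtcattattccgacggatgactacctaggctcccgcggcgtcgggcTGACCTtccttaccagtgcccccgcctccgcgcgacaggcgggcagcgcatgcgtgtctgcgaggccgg

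Lipe start 1 was rich in GC boxes and held 1 E-box, and start 2 held 1 forkhead match and no GC box. Pnpla2 held GC boxes alone among the motifs searched, and Abhd5 held a GC box, 1 TGACG and 1 AGGTCA. Over all 32851 promoter windows of the table, 35.7% held GGGCGG, 7.15% CACGTG, 3.65% TGTTTAC, 16.3% AGGTCA and 20.8% TGACG. The full cAMP element TGACGTCA (1.79% of windows), TATAAA (13.6%) and the C/EBP motif TTGCGCAA (0.183%) had no match in any of the 12 windows. A match is a run of letters and not a measured site.

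Among the genes described here, the lipase that starts the pathway differed most between the depots in Ad IIa and over all labels. The adipocyte markers differed more, with a median log2 ratio of -4.59 in Ad IIa and -4.05 over all labels. Their part was not tested. Pnpla2 (chr7:141455188-141460743, plus strand) stood at 289 CPM (125 to 569.9) in thymic Ad Ia, at 0 UMIs in Ad Ib, at 59.8 CPM in Ad IIa, 37.0 CPM in Ad IIb and 55.3 CPM in Ad IIc. In epigonadal fat it stood at 334 CPM in Ad Ia, 208 CPM in Ad Ib, 357 CPM in Ad IIa, 135 CPM in Ad IIb and 1523 CPM (1418 to 1633) in Ad IIc. The epigonadal Ad IIc level lay above every other, and the Ad Ia levels of the depots overlapped within counting error. The 0 UMIs of thymic Ad Ib are read as a floor of 3 counts, which is 122 CPM (the exact upper limit is 150.1 CPM).

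Its activator Abhd5 (chr9:122351616-122381524, plus strand) had its highest thymic level where Pnpla2 did, with 325 CPM (149 to 618) in Ad Ia and 203 CPM in Ad Ib. It was at 42.3 CPM in thymic Ad IIa, at 36.9 CPM in Ad IIc and at 0 UMIs in Ad IIb. Epigonadal levels were 62.7 CPM, 74.8 CPM, 69.5 CPM and 63.9 CPM from Ad Ia through Ad IIb, nearly level, and 232 CPM (193 to 278) in Ad IIc. The inhibitor G0s2 (chr1:193272160-193273188, minus strand) was also highest in Ad Ia in thymus, at 253 CPM, with 122 CPM in Ad Ib, 17.4 CPM in Ad IIa and 36.9 CPM in Ad IIc, with 0 UMIs in Ad IIb. Thymic Ad Ia over Ad Ib rested on 9 against 5 UMIs for Abhd5 and 7 against 3 for G0s2. The log2 ratios were 0.62 (-1.05 to 2.60) and 0.93 (-1.08 to 3.64), with limits that spanned 0. In epigonadal fat G0s2 was at 118 CPM, 99.8 CPM and 87.3 CPM in Ad Ia, Ad Ib and Ad IIa, at 14.2 CPM in Ad IIb and at 477 CPM in Ad IIc. So all 3 genes of the first step had their highest epigonadal level in Ad IIc.

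Lipe (chr7:25379527-25398486, minus strand) was highest in thymic Ad Ia, at 1482 CPM (1064 to 2011), above epigonadal Ad Ia at 989 CPM (833 to 1166), a log2 ratio of 0.60 (0.046 to 1.09). Thymic Ad Ib had 529 CPM, and Ad IIa, Ad IIb and Ad IIc had 152 CPM, 148 CPM and 129 CPM, the level of the unlabelled thymic barcodes (152 CPM). Epigonadal Lipe was at 740.1 CPM in Ad Ib, 343 CPM in Ad IIa, 284 CPM in Ad IIb and 1011 CPM in Ad IIc. Mgll (chr6:88724412-88828360, plus strand) had the reverse order in thymus: 578 CPM in Ad Ia and 732 CPM in Ad Ib, against 1539 CPM in Ad IIa, 1480.4 CPM in Ad IIb and 1216 CPM in Ad IIc. Its epigonadal levels were 1650.5 CPM, 1513 CPM, 2267 CPM and 1819 CPM from Ad Ia through Ad IIb, and 905 CPM in Ad IIc. Hormone-sensitive lipase and monoglyceride lipase were thus highest in different thymic labels.

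The glycerol channel Aqp7 (chr4:41033074-41048237, minus strand) had 0 UMIs in thymic Ad Ia (a floor of 3 counts is 108 CPM, the exact upper limit 133 CPM) and 3 UMIs in Ad Ib, against 264 CPM (216 to 319) in Ad IIa, 296 CPM in Ad IIb and 258 CPM in Ad IIc. In epigonadal fat the labels with endothelial RNA were again the high ones, at 303 CPM (273 to 335) in Ad IIa and 227 CPM in Ad IIb, while Ad Ia, Ad Ib and Ad IIc had 83.6 CPM, 74.8 CPM and 42.6 CPM. Over the 12 groups (5 labels and the unlabelled barcodes of each library) Aqp7 correlated with the summed endothelial markers at r = 0.962 on the scale log2(CPM + 10), the highest value among the pairs computed, of the 8 genes with enough UMIs with each other and with the adipocyte and endothelial marker sums. The groups share libraries and differ in depth, so this is a description. Whether Aqp7 RNA came from endothelial nuclei was not tested.

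On the side of the receptors, Adrb3 (chr8:27225776-27230845), the main beta receptor of rodent fat cells, was at 289 CPM (125 to 569.9) in thymic Ad Ia and 122 CPM in Ad Ib, and had 3, 1 and 0 UMIs in Ad IIa, Ad IIb and Ad IIc. Epigonadal Adrb3 was at 696 CPM (567 to 847) in Ad Ia, 308 CPM in Ad Ib, 37.2 CPM in Ad IIa, 21.3 CPM in Ad IIb and 221 CPM in Ad IIc. By level, Ad Ia lay above Ad Ib and Ad Ib above Ad IIa in both depots, and epigonadal Ad IIc lay above epigonadal Ad IIa. In thymus Ad Ia over Ad Ib rested on 8 against 3 UMIs, a log2 ratio of 1.11 (-0.81 to 3.79) whose limits spanned 0. Adrb1 (chr19:56722117-56725150, plus strand) was almost undetected: the labelled thymic nuclei held 2 UMIs and the labelled epigonadal nuclei 8, of which 6 in Ad IIc. Unlabelled thymic barcodes held 36 UMIs of Adrb1 (7.82 CPM) and the epigonadal ones 4.

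Of the genes that restrain cyclic AMP, Pde3b (chr7:114415222-114537938) had the steepest order. It stood at 3001 CPM (2390 to 3720) in thymic Ad Ia and 1261 CPM (857 to 1790) in Ad Ib, against 29.9 CPM in Ad IIa, 74.0 CPM in Ad IIb and 55.3 CPM in Ad IIc. In epigonadal fat it stood at 1706 CPM (1499 to 1934) in Ad Ia, 832 CPM in Ad Ib, 72.7 CPM in Ad IIa, 21.3 CPM in Ad IIb and 353 CPM in Ad IIc. Thymic Ad Ia lay above epigonadal Ad Ia without overlap of the limits, and thymic Ad IIa lay below epigonadal Ad IIa. Adora1 (chr1:134199215-134235457, minus strand) had 4 UMIs in all labelled thymic nuclei and 28 in the epigonadal ones, 17 of them in Ad IIc at 32.9 CPM.

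**Figure D1:**
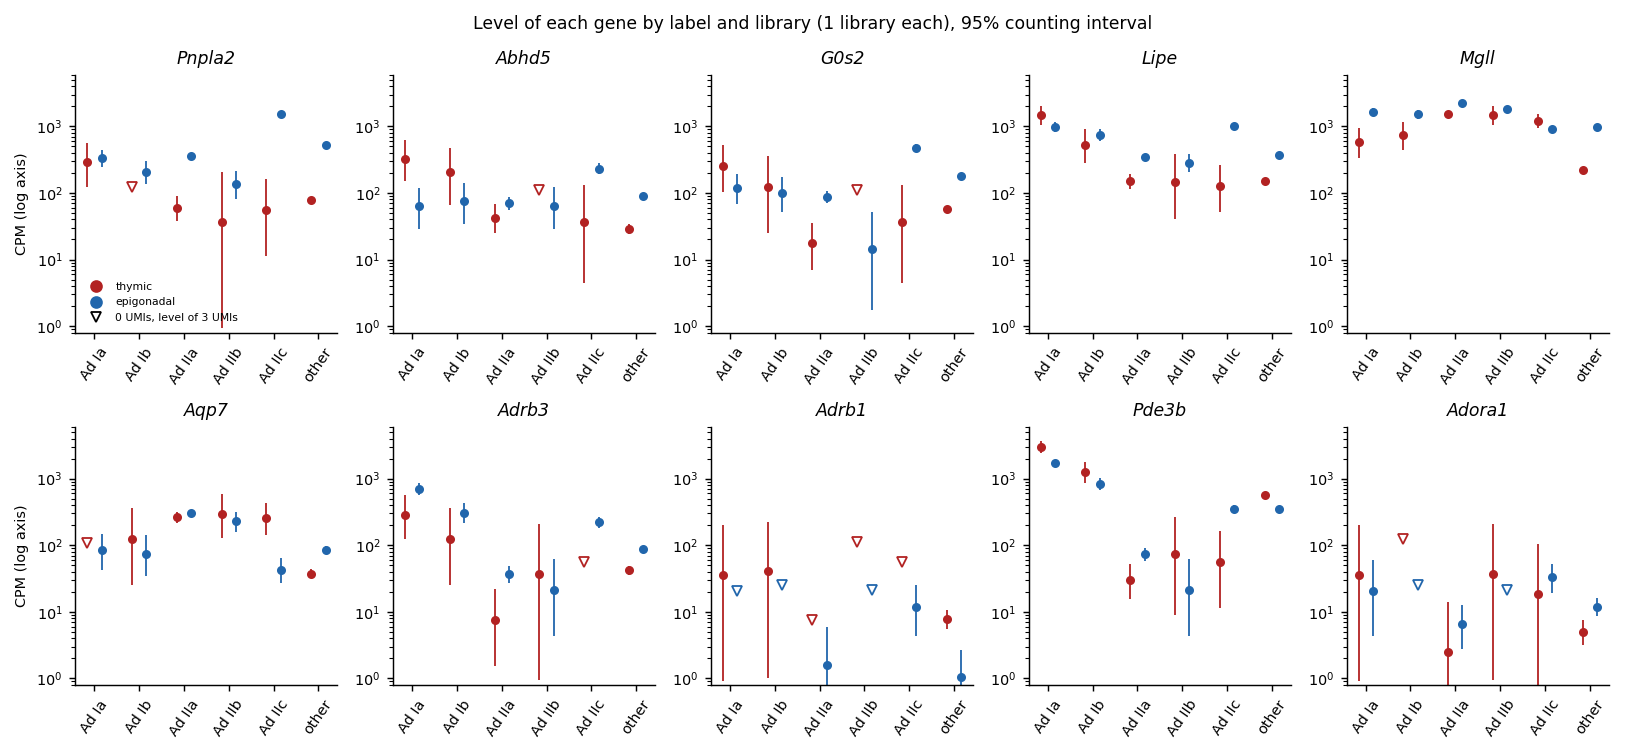
Level of each gene in CPM (log axis) for the 5 labels and the unlabelled (other) barcodes, in red for the thymic and blue for the epigonadal library. Points are summed levels, bars the 95% counting interval, and open triangles the level of 3 UMIs where none was counted. Pde3b and Adrb3 are highest in Ad Ia of both libraries, Aqp7 in Ad IIa and Ad IIb, and Pnpla2 in epigonadal Ad IIc at 1523 CPM.

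The depots were first compared within Ad I, where the summed adipocyte markers without Fabp4 were highest among the thymic labels. In thymus that rests on Ad Ia. Thymic Ad Ib, 49 of the 84 nuclei, had them at 2766 CPM (2148 to 3507), limits that include the unlabelled thymic level of 2314 CPM. Within Ad I, Abhd5 was higher in thymus and Mgll and Adrb3 were lower. A gene was counted as different when the sums differed at least 2-fold with at least 10 UMIs over both sides, with 0.5 UMI added to each sum. Of the 8 genes that reached 10 UMIs, 1 was higher in thymic Ad I (15.2% of 5346 genes were) and 2 were lower (9.26% of genes). Abhd5 was at 268 CPM against 68.2 CPM, a log2 ratio of 1.985 (0.85 to 3.06). Mgll was at 651 CPM against 1588 CPM, a log2 ratio of -1.27 (-1.84 to -0.78). Adrb3 was at 211 CPM against 519 CPM, a log2 ratio of -1.24 (-2.34 to -0.42), which was -0.58 when each nucleus had equal weight and -2.90 over nuclei with at least 1000 UMIs. Pde3b, at 2182 CPM against 1308 CPM, had a log2 ratio of 0.74 (0.42 to 1.05), below the 2-fold mark.

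For the others the limits spanned 0, with Lipe at 0.25 (-0.22 to 0.67), G0s2 at 0.85 (-0.40 to 1.88), Pnpla2 at -0.78 (-2.12 to 0.20) and Aqp7 at -0.28 (-2.86 to 1.27). Of the 2 labels joined as Ad I, Ad Ia gave Lipe the ratio of 0.60 stated above, with limits clear of 0, while the Ad Ib ratio was -0.44 (-1.45 to 0.36). The median over the 8 was -0.016 beside 0.080 over all genes, with 4 of the 8 above 0 (53.9% of all genes were). Adrb1 and Adora1 had 2 and 4 UMIs over both sides and were not compared. Adipocyte markers were also lower in thymic Ad I, at 6910 CPM against 12962 CPM, T cell markers higher, at 517 CPM against 64.4 CPM, macrophage markers lower, at 115 CPM against 565 CPM, and fibroblast markers lower, at 153 CPM against 546 CPM. Endothelial markers summed to 1244 CPM against 1129 CPM, from 72.3 CPM against 634 CPM in Ad Ia and 2563 CPM against 1721 CPM in Ad Ib. Their part in these ratios was not tested.

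Within Ad IIa, the label with most thymic nuclei (231, with 401448 UMIs), the log2 ratio of all 8 genes with enough UMIs was below 0, where 48.8% of all genes were above 0. The size rule held for 5 of them (14.3% of 9775 genes were lower by it), and 0 were higher (5.44% of genes). Pnpla2 differed most, at 59.8 CPM against 357 CPM, a log2 ratio of -2.55 (-3.24 to -1.99). G0s2 followed at -2.23 (-3.67 to -1.23) and Adrb3 at -2.11 (-4.64 to -0.68), the latter from 3 UMIs against 46. Pde3b had -1.23 (-2.29 to -0.41) and Lipe -1.16 (-1.59 to -0.78). Mgll had -0.56, and the limits spanned 0 for Abhd5 at -0.68 (-1.56 to 0.047) and Aqp7 at -0.19 (-0.52 to 0.12), and the median was -1.20 beside -0.024 over all genes. With free RNA subtracted, by the profile of the unlabelled barcodes, 2 of 6 genes were lower, Pnpla2 at -2.02 and Lipe at -1.09. G0s2 then had -0.39 and Adrb3, then under 10 UMIs, turned to 2.003. The epigonadal profile held adipocyte markers without Fabp4 at 17579 CPM, against 10466 CPM in epigonadal Ad IIa. Its scale came from T cell markers, of which 3 of 10 had a UMI in epigonadal Ad IIa. The subtraction therefore cannot separate free RNA from adipocyte RNA there. In this label 9 of 10 adipocyte markers were lower in thymus by the same rule, with a median log2 ratio of -4.59 (-4.25 with counts of 0 set to 3), and 0 of 10 endothelial markers were. Fibroblast (4 of 4) and macrophage markers (4 of 5) were lower too, while erythroid (3 of 3) and T cell markers (3 of 4) were higher. The part of all these markers was not tested. Fewer nuclei with adipocyte RNA under this label and less RNA of these genes per nucleus cannot be told apart here.

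Ad IIc named different material in the depots: thymic Ad IIc held 34 nuclei with 22575 CPM of erythroid markers, and epigonadal Ad IIc 658 nuclei with 368 CPM. By the size rule 10 of 10 endothelial markers were higher in thymic Ad IIc (8533 CPM against 439.8 CPM in sum) and 10 of 10 adipocyte markers lower (17581 CPM against 88199 CPM, Fabp4 included). Nuclear RNAs (Malat1, Neat1 and Meg3) were at 14503 CPM in thymic and 1829 CPM in epigonadal Ad IIc, and ribosomal protein genes at 50900 CPM and 84720 CPM. The part of these markers and RNA classes in the ratios was not tested. Of 9 genes compared, 6 were lower in thymic Ad IIc (14.9% of genes were) and 1 was higher (32.7% of genes). Pnpla2 had a log2 ratio of -4.56 (-7.06 to -3.23) from 3 UMIs against 786, and Adrb3 was at least 3.99-fold lower by the floor of 3 counts, from 0 UMIs against 114 (the exact upper limit of its log2 ratio is -1.68). Aqp7 was the higher one, at 2.62 (1.52 to 3.63), and Mgll had 0.44. Over all labelled nuclei together, 4 of the 10 genes were lower in thymus (17.3% of genes were) and 0 were higher (8.12% of genes). Those lower were Pnpla2 at -3.17 (-3.70 to -2.71), G0s2 at -2.29, Adrb3 at -2.26 and Lipe at -1.25, while Pde3b had -0.23 and Aqp7 0.24. Over the same nuclei 10 of 10 adipocyte markers were lower in thymus, with a median log2 ratio of -4.05 (-4.00 with counts of 0 set to 3). Macrophage (6 of 6) and fibroblast markers (4 of 6) were lower too. Higher were 3 of 10 endothelial, 4 of 5 T cell and 3 of 3 erythroid markers, and the part of all these markers was not tested. This sum mixes labels in different shares: Ad IIc gave 10.1% of the labelled thymic UMIs and 23.9% of the epigonadal ones.

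**Figure D2:**
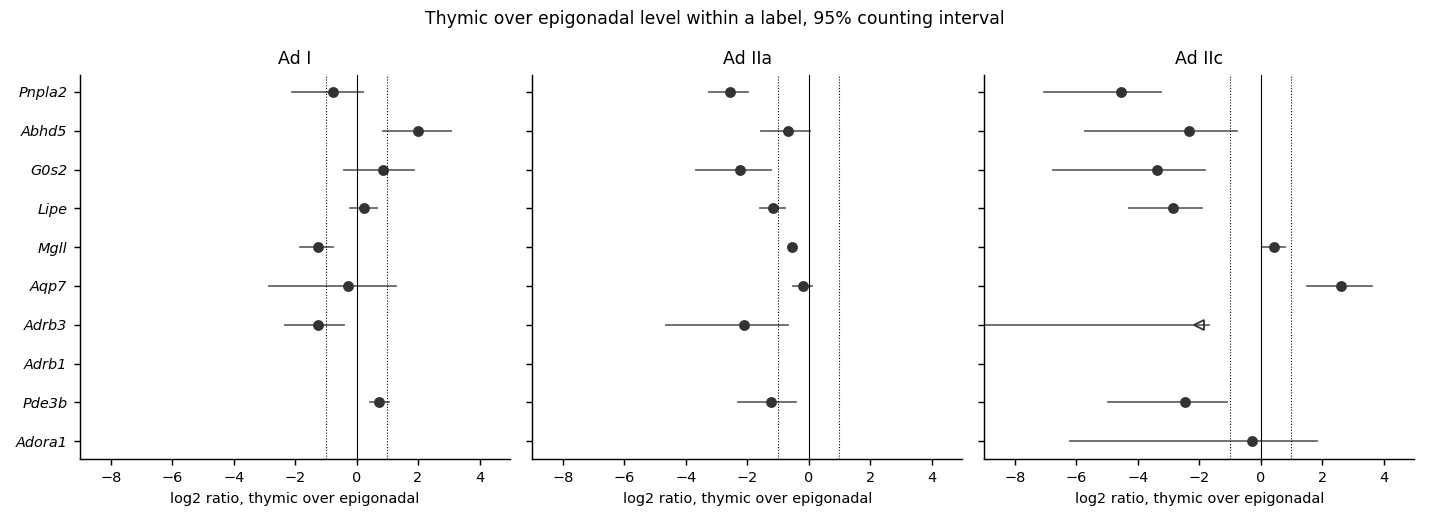
Log2 ratio of the thymic over the epigonadal level of each gene within Ad I, Ad IIa and Ad IIc, with the 95% counting interval and dotted lines at 2-fold. The open triangle is a bound with the count of 0 set to 3, and genes with fewer than 10 UMIs over both sides have no point. Abhd5 and Pde3b lie right of 0 in Ad I and left of 0 in Ad IIa and Ad IIc.

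The UMIs of each gene were then split by label. Pde3b had 87.0% (80.0 to 92.3) of its labelled thymic UMIs in Ad I and 55.6% (51.6 to 59.6) of its epigonadal ones, where Ad I gave 9.77% and 12.2% of all UMIs. Adrb3 had 73.3% (44.9 to 92.2) and 45.7% (39.9 to 51.5) there. Lipe had 42.9% and 19.0% in Ad I. Mgll and Aqp7 lay mostly in Ad IIa, with 81.5% (78.6 to 84.2) and 80.9% (73.1 to 87.3) of their thymic and 71.1% and 83.3% of their epigonadal UMIs, against 75.0% and 57.3% of all UMIs. For thymic Aqp7 the limits include the share of all UMIs. Pnpla2, G0s2 and Abhd5 lay mostly in epigonadal Ad IIc, with 59.5%, 63.9% and 51.5% of their labelled epigonadal UMIs.

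**Figure D3:**
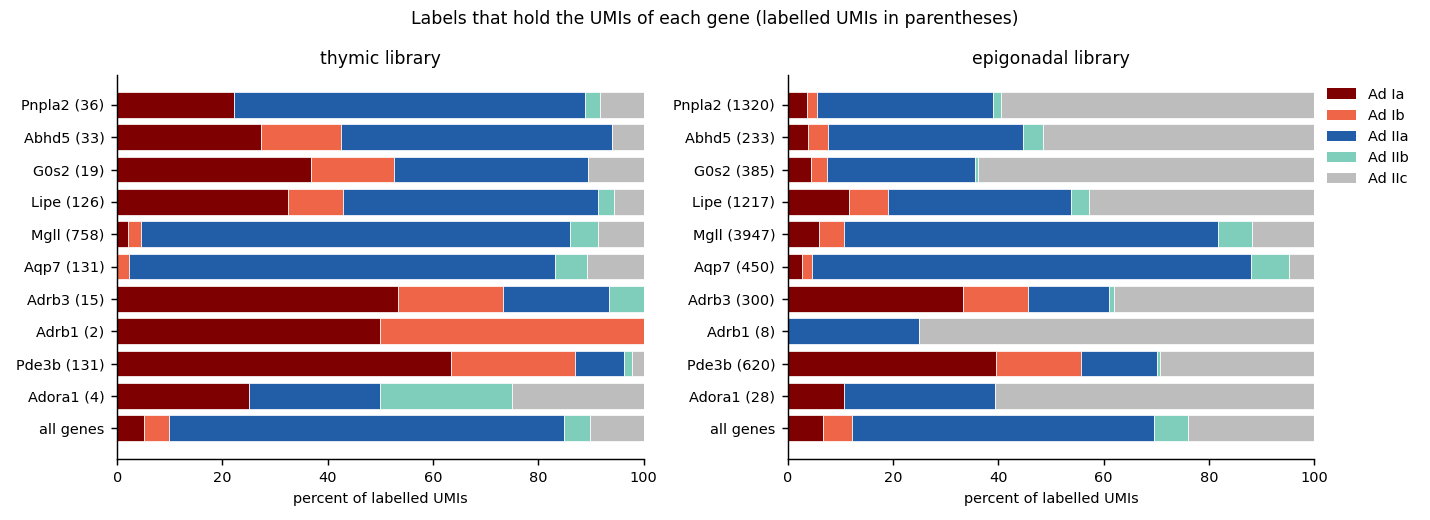
Percent of the labelled UMIs of each gene that lie in each label, for the thymic (left) and epigonadal (right) library, with the labelled UMIs of the gene in parentheses and the same split for all genes in the bottom bar. In thymus Pde3b and Adrb3 are widest in Ad Ia, at 63.4% and 53.3%, and in epigonadal fat Pde3b is widest in Ad Ia (39.5%) and Adrb3 in Ad IIc (38.0%). Mgll and Aqp7 are widest in Ad IIa, and Pnpla2, Abhd5 and G0s2 in epigonadal Ad IIc.

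Contrasts between labels of 1 library describe how the genes were placed, since the labels come from these nuclei. In thymus, Ad IIa over Ad I was higher for 2 of 8 genes (16% of genes), Aqp7 at a log2 ratio of 1.99 and Mgll at 1.22, and lower for 6 (20.2% of genes). Pde3b was the extreme, at -6.14 (-7.18 to -5.33), followed by Adrb3 at -4.66, G0s2 at -3.43, Lipe at -2.77, Abhd5 at -2.67 and Pnpla2 at -1.41 (-2.56 to 0.0075). In epigonadal fat the same contrast was higher for 1 of 9 (17.5% of genes), Aqp7 at 1.90, and lower for 3 (17.5% of genes), Pde3b at -4.16, Adrb3 at -3.79 and Lipe at -1.35. There Pnpla2, Abhd5 and G0s2 had 0.36, -0.0040 and -0.35. In Ad IIa over Ad I, 10 of 10 endothelial markers were higher in each library, and 8 of 9 adipocyte markers were lower in thymus and 4 of 10 in epigonadal fat. Nuclear RNAs were at 17823 CPM against 59455 CPM in thymus and 10402 CPM against 42411 CPM in epigonadal fat. Epigonadal macrophage markers were at 84.9 CPM against 565 CPM, fibroblast markers at 186 CPM against 546 CPM and erythroid markers at 121 CPM against 531 CPM. Thymic erythroid markers were at 483 CPM against 440 CPM. The part of all these was not tested. Within Ad I, thymic Ad Ia was higher than Ad Ib for 3 of 6 genes (15.4% of genes), Lipe at 1.45, Pde3b at 1.24 and Adrb3 at 1.11 (-0.81 to 3.79). Epigonadal Ad Ia was higher than Ad Ib for 2 of 8 (9.97% of genes), Adrb3 at 1.17 and Pde3b at 1.03. There 7 of 8 endothelial markers (634 CPM against 1721 CPM) and 3 of 3 erythroid markers (188 CPM against 939.7 CPM) were lower in Ad Ia, and in thymus the summed endothelial markers were lower too, as given above, and 5 of 8 adipocyte markers were higher, with a median of 1.495. Their part was not tested.

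Epigonadal Ad IIc over epigonadal Ad I was higher for Pnpla2, G0s2 and Abhd5 and lower for Pde3b and Adrb3. By the size rule 4 of 9 genes were higher (24.1% of genes) and 2 lower (37.5% of genes). Pnpla2 was at 1523 CPM against 277 CPM, a log2 ratio of 2.45 (2.11 to 2.83), with G0s2 at 2.09 (1.56 to 2.72) and Abhd5 at 1.74 (1.05 to 2.57). Adora1 had 1.35 (-0.26 to 3.95) from 17 UMIs against 3. Pde3b was lower at -1.89 (-2.16 to -1.63) and Adrb3 at -1.23 (-1.60 to -0.86). Lipe had 0.21, Mgll -0.81 and Aqp7 -0.90. The median of the 9 genes was 0.21 beside -0.40 over all genes, and 0.81 beside 0.20 with TMM scaling, under which only Pde3b was lower by the size rule. Over nuclei with at least 1000 UMIs the median of the members was -0.28. Nuclear RNAs (Malat1, Neat1 and Meg3) were at 1829 CPM in Ad IIc and 42411 CPM in Ad I, and ribosomal protein genes at 84720 CPM and 21092 CPM. Of the markers, 7 of 10 adipocyte genes were higher in Ad IIc (88199 CPM against 19136 CPM in sum, Fabp4 included), while 7 of 10 endothelial genes (439.8 CPM against 1129 CPM) and 5 of 6 macrophage genes (149 CPM against 565 CPM) were lower. The part of these differences in RNA make-up was not tested.

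The share of nuclei with a UMI follows depth, so nuclei were also thinned to 500 UMIs each. Pde3b was then found in 12 of 17 thymic Ad Ia nuclei (70.6%, 44.0 to 89.7) and in 57 of 104 epigonadal ones (54.8%, 44.7 to 64.6), with 18 and 2 shallower nuclei left out. Unthinned, the shares were 68.6% and 80.2%. Lipe was found in 52.9% (27.8 to 77.0) and 39.4% (30.0 to 49.5) of thinned Ad Ia nuclei, and unthinned in 60.0% and 61.3%. The limits of the depots overlapped for both genes. Mgll was found in 35.3% (14.2 to 61.7) of thinned thymic Ad Ia and 59.6% (49.5 to 69.1) of epigonadal Ad Ia nuclei, and in 52.9% and 61.7% of Ad IIa nuclei. Pnpla2 was found in 55.8% (51.7 to 59.8) of thinned epigonadal Ad IIc nuclei and 14.4% (8.30 to 22.7) of epigonadal Ad Ia nuclei. These 2 labels differed in RNA make-up. Nuclear RNAs were at 1829 CPM in epigonadal Ad IIc and 44681 CPM in Ad Ia, and ribosomal protein genes at 84720 CPM and 15913 CPM. The part of this in the shares was not tested. The unlabelled thymic barcodes, with a median of 308 UMIs against 604 in thymic Ad Ia, held a UMI of Pde3b in 8.36% and of Lipe in 2.69%. These barcodes held adipocyte markers without Fabp4 at 2314 CPM, so the 2 shares are not a clean background either. The unlabelled epigonadal barcodes held a UMI of Mgll in 36.8%, of Pnpla2 in 34.0%, of Lipe in 27.1% and of Pde3b in 24.5%. They also held adipocyte markers without Fabp4 at 17579 CPM, against 20308 CPM in all labelled epigonadal nuclei, so their shares cannot be read as a background.

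Levels were also set against the unlabelled thymic barcodes, which had 51.2% mitochondrial UMIs and held T cell markers at 4820 CPM and erythroid markers at 5672 CPM. In these barcodes free RNA and the RNA of other cells cannot be told apart. Thymic Ad I was higher for 9 of 10 genes (24.9% of genes), with a median log2 ratio of 2.17 beside 0.58 over all genes. The limits lay above 0 for 6 of the 9: Abhd5 at 3.25 (2.29 to 4.00), Lipe at 2.78, Adrb3 at 2.39, Pde3b at 1.95, G0s2 at 1.81 and Mgll at 1.56. Pnpla2, at 1.07 (-0.24 to 1.98), Adrb1, at 2.59 from 2 UMIs, and Adora1, at 2.49 from 1 UMI, did not have limits above 0. In thymic Ad IIa Pnpla2 (59.8 CPM), G0s2 (17.4 CPM), Adrb3 (7.47 CPM) and Pde3b (29.9 CPM) lay below the unlabelled thymic level of 77.3 CPM, 57.4 CPM, 41.9 CPM and 565 CPM, though the limits for Pnpla2 (38.3 to 89.0) include it. In epigonadal Ad IIa these genes also lay below the unlabelled level, at 357 against 520.1 CPM, 87.3 against 182 CPM, 37.2 against 88.7 CPM and 72.7 against 355 CPM, as did Abhd5, at 69.5 against 89.2 CPM, and Lipe, at 343 against 367 CPM. The unlabelled epigonadal barcodes held adipocyte markers without Fabp4 at 17579 CPM, against 10466 CPM in epigonadal Ad IIa. Free RNA and the RNA of adipocytes cannot be told apart in them, so theirs is not a background level. Adrb1 and Adora1 had 0 and 1 UMI in thymic Ad IIa.

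Further genes of the pathway were read from lists, by the same size rule, in thymic over epigonadal Ad I, where 15.2% of all genes were higher and 9.26% lower. Of 18 genes of cyclic AMP synthesis and protein kinase A, 8 were higher and 1 was lower, with a median of 0.61. Akap1, an anchor of protein kinase A at mitochondria, was at 708 CPM against 109.9 CPM (log2 2.68, 1.95 to 3.44), Gnas, the stimulatory G protein, at 938 CPM against 284 CPM (1.73, 1.17 to 2.26), and adenylyl cyclase Adcy5 at 115 CPM against 337 CPM (-1.45). Of 21 droplet coat genes and lipase partners, 7 were higher and 4 lower, with a median of 0.52. Cidea, a droplet fusion protein of brown and beige fat, had 16 UMIs against 4 (306 CPM and 15.2 CPM, log2 4.21, 2.70 to 6.38), and its relative Cidec was at 613 CPM against 2562 CPM (-2.04, -2.62 to -1.55). Glycerol phosphate dehydrogenase Gpd1 had 1.25 and the fatty acid carrier Fabp4 -1.12. Cidec and Fabp4 are also in the adipocyte marker list. The alpha receptor Adra1a, the 1 gene of 3 further adrenergic receptors with enough UMIs, was at 402 CPM against 53.1 CPM (log2 2.90, 1.88 to 4.01), the opposite direction to Adrb3.

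Of 10 other phosphodiesterases, 1 was higher and 0 lower in thymic Ad I, and among those with at least 20 UMIs the highest ratios were Pde7b at 0.94 and Pde4d at 0.88. Of 8 genes of a list of further receptors and effectors that raise or lower lipolysis, 1 was higher and 0 lower. The thyrotropin receptor Tshr had -0.68 and the activin receptor Acvr1c was level, at 747 CPM against 754 CPM. Of 8 antilipolytic receptors and inhibitory G proteins 2 were higher and 0 lower, with Rgs2, a regulator of G protein signalling, at 2.77. Of 12 genes of the insulin arm 2 were higher and 2 lower. Among them Grb10 had 1.24 (-0.043 to 2.34), and Pik3ca at -1.61 (-5.01 to 0.041) and Pdpk1 at -1.22 (-4.63 to 0.46) each had 2 thymic UMIs, so the limits of all 3 spanned 0. In Ad IIa, where 14.3% of all genes were lower and 5.44% higher, the droplet list had 8 of 24 genes lower and 1 higher, led by Plin4 at -5.60 and Cidec at -4.74, and the protein kinase A list 7 of 20 lower and 0 higher. Plin1, Plin4, Cidec and Fabp4 of the droplet list are also adipocyte markers, of which 9 of 10 were lower in thymic Ad IIa. The droplet count is therefore not separate from the marker result, and the part of label make-up was not tested. In epigonadal Ad IIc over Ad I, 9 of 10 other phosphodiesterases were lower, where 37.5% of all genes were, with Pde4d at -3.95. So were 8 of 9 genes of the list of receptors and effectors, with the growth hormone receptor Ghr at -3.63. Of 16 genes of the protein kinase A list 3 were higher (24.1% of all genes were) and 9 lower (median -1.44). The kinase subunit Prkaca was at 2.18 and Gnas at 1.35, against Sik2, a salt-inducible kinase, at -3.30 and Adcy5 at -2.47.

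For each member with at least 50 labelled UMIs, the genes whose levels followed it most closely over the 12 groups were found among 4553 genes, as Pearson correlation of log2(CPM + 10). Pnpla2 was most like Plaat3 (0.957), Acadsb (0.954) and Adig (0.949). G0s2 was most like Ces1d (0.972), Ppa1 (0.972) and Cib2 (0.969), and Abhd5 most like Decr1 (0.933), Nr1h3 (0.929) and Chpt1 (0.928). For Lipe these were Apol6 (0.95), Pcx (0.938) and Net1 (0.937), and for Adrb3 Echdc1 (0.977), Asph (0.955) and again Apol6 (0.947). Pde3b was closest to Celf2 (0.977), Bmpr1a (0.964) and Sgcd (0.961). Mgll was closest to Dst (0.930), with Arhgap29 (0.820) and Fzd4 (0.819) farther off, and Aqp7 to Uaca (0.984), Ppfibp1 (0.982) and Bmpr2 (0.982). Among the members themselves Lipe and Adrb3 were the most alike (0.897), then Abhd5 and G0s2 (0.854) and Adrb3 and Pde3b (0.852), and Aqp7 and Pde3b the least (-0.804).

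Chromatin was read from the 6-month thymi, in 317 labelled nuclei with 4397902 fragments. The authors' labels were thyAD I (146 nuclei, 1646902 fragments), thyAD II (140 nuclei, 2189613 fragments) and Immune (31 nuclei, 561387 fragments). Fragments were counted over each gene and 2 kb on either side and scaled per 1000000 fragments of the group (FPM). These windows take in other genes for 8 of the members, such as Cracr2b for Pnpla2, Cxcl17 for Lipe and Got1l1 for Adrb3. By a mark of 1.5-fold with at least 20 fragments, 0 of 10 genes were higher in thyAD II than in thyAD I (9.18% of 23425 genes were) and 0 lower (5.9% of genes). The median log2 ratio was -0.14 beside 0.018 over all genes, and 9 of the 10 genes were below 0 (48.1% of all genes were). By the same mark 3 of 6 mural and 2 of 9 endothelial markers were higher in thyAD II, and 2 of 5 T cell markers lower. Of 10 adipocyte markers 0 passed it, with a median of -0.076. The part of these markers was not tested.

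Among the lipases, Pnpla2 had 160 FPM (141 to 180.2) in thyAD I, 113 (99.2 to 128) in thyAD II and 110 (84.7 to 142) in Immune nuclei. Its log2 ratio of thyAD II over thyAD I was -0.50 (-0.76 to -0.25). Mgll had 341 FPM in thyAD I, 280.4 in thyAD II and 169 in Immune nuclei, with a log2 ratio of -0.28 (-0.45 to -0.12). Both lay lower in thyAD II beyond counting error and short of 1.5-fold. Lipe had 309.7 FPM in thyAD I, 296 in thyAD II and 228 in Immune nuclei, a log2 ratio of -0.066 (-0.24 to 0.10), which was 0.51 when only 1 kb around each gene end was counted. That narrower window leaves out the 2 RefSeq starts of Lipe.

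Abhd5 had 91.7 and 88.1 FPM in thyAD I and thyAD II and 42.8 in Immune nuclei, and G0s2 had 77.7, 66.7 and 46.3. The channel gene Aqp7 had 60.7 FPM (49.4 to 73.9) in thyAD I and 42.5 (34.3 to 52.0) in thyAD II, a log2 ratio of -0.52 (-0.94 to -0.094), and 19.6 in Immune nuclei. Adrb3 had 87.4, 84.9 and 39.2 FPM, and Adrb1, almost undetected as RNA in the 4-month thymi, had 46.1, 44.3 and 21.4. Pde3b, whose RNA differed most between thymic labels at 4 months, had 131, 136 and 99.8 FPM, a log2 ratio of 0.052 (-0.20 to 0.31). Adora1 had 83.2, 66.2 and 32.1. The labels thyAD I and thyAD II come from other animals than Ad I and Ad II, of the other sex and another age, so the RNA and chromatin values stand side by side without a comparison.

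Against thyAD I, the Immune nuclei were lower for 7 of 10 genes (19% of genes were), with a median log2 ratio of -1.03 beside -0.032 over all genes. The lowest were Aqp7 at -1.57 (-2.68 to -0.73), Adora1 at -1.34 and Adrb3 at -1.13, and the 3 that did not reach 1.5-fold were Pnpla2 at -0.52, Lipe at -0.44 and Pde3b at -0.39. Within thyAD I, cluster 3 (61 nuclei) was lower than cluster 1 (85 nuclei) for 1 of 10 genes (11.6% of genes), Aqp7 at -0.62 (-1.38 to 0.050). The clusters may have been made from these same fragments, so contrasts between them are a description.

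**Figure D4:**
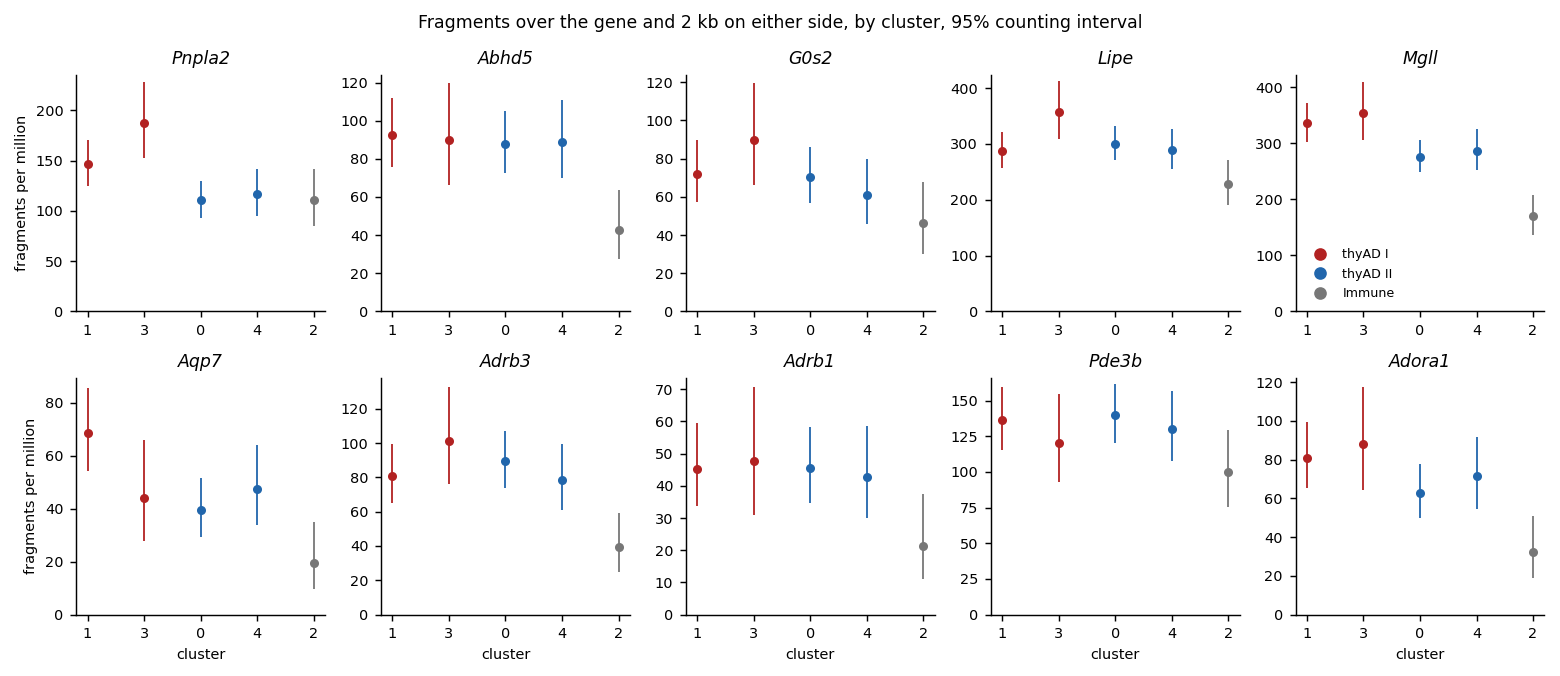
Fragments per 1000000 (FPM) over each gene and 2 kb on either side, by cluster of the 6-month thymic nuclei, with 95% counting intervals (thyAD I red, thyAD II blue, Immune grey, each axis from 0). The Immune cluster has the lowest point for all 10 genes, with limits that overlap those of other clusters for some, among them Pnpla2, G0s2 and Pde3b. Pnpla2 is higher in both thyAD I clusters than in both thyAD II clusters.

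At the promoters printed above, Lipe start 2 had the highest level of the 12 in thyAD I, at 43.7 FPM, and in thyAD II, at 31.1. In Immune nuclei it had 26.7 FPM, below Pnpla2 and Lipe start 1. By the fragments of thyAD I and thyAD II together, start 2 stood at the 98.0 percentile of the 32851 promoter windows. The percentiles below are ranked the same way, without Immune nuclei. Lipe start 1 had 21.9, 23.7 and 33.8 FPM and stood at the 91.2 percentile. Of the fragments at either start, start 2 held 66.7% (56.9 to 75.4) of 108 in thyAD I, 56.7% (47.3 to 65.7) of 120 in thyAD II and 44.1% (27.2 to 62.1) of 34 in Immune nuclei. The order runs from thyAD I to Immune nuclei, and the limits of all 3 groups overlap. Along the gene, bins of 500 bases were ranked by thyAD I and thyAD II together. The highest was centred 8209 bases from the 5′ end of Lipe, beside start 2, with 109 cut sites per 1000000 fragments in thyAD I, 86.8 in thyAD II and 64.1 in Immune nuclei. The next was centred at 6209 bases, between the starts, with 73.5, 46.6 and 19.6, and the third at 2709 bases, beside start 1, with 71.0, 43.4 and 62.3.

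**Figure D5:**
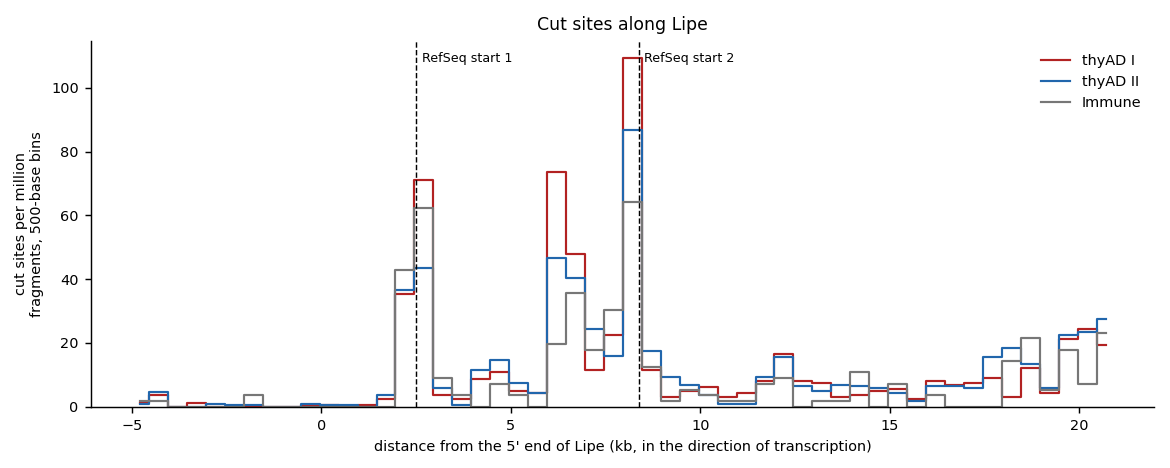
Cut sites per 1000000 fragments in bins of 500 bases along Lipe, against distance from the 5′ end of the gene in kb, for thyAD I, thyAD II and Immune nuclei, with the 2 RefSeq starts as dashed lines. The highest bin lies beside start 2 in thyAD I and thyAD II. In Immune nuclei that bin and the bin beside start 1 are close, from 36 and 35 cut sites. Of the 3 groups, Immune nuclei are lowest in the bin centred at 6209 bases, at 19.6.

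The Pnpla2 window had 24.9 FPM in thyAD I, 24.2 in thyAD II and 35.6 in Immune nuclei. It stood at the 92.3 percentile of promoter windows by that rank, and its log2 ratio of thyAD II over thyAD I was -0.044 (-0.66 to 0.58). The Abhd5 window had 18.2 and 15.1 FPM in thyAD I and thyAD II, from 30 and 33 fragments, and 3.56 in Immune nuclei, from 2. The second start of Aqp7 had 18.8 against 10.5 FPM, a log2 ratio of thyAD II over thyAD I of -0.83 (-1.69 to -0.017). The windows of Adrb1 and G0s2 stood at the 87.6 and 82.1 percentile.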

How the data were processed

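UMI counts per gene and barcode were deposited by the authors as count matrices, made with cellranger 7.2.0 (RNA) and cellranger-arc 2.0.2 (fragments, mm10) per the file headers. Cell Ranger ARC 2.0.2 and Seurat 5.1.0 are named in the submitters' processing notes. Whether introns were counted, and how the cell labels were made, is not stated in the labels or headers. The header of the chromatin cluster column names a joint clustering of RNA and chromatin, which may have used the fragments counted here. Labels were taken from the authors' deposited nucleus tables, whose percent columns (mitochondrial percent) were not used for values. The copy of the 6-month table stops inside row 318, so 317 nuclei were used. All labelled nuclei are classed as singlets there, and no doublet caller was run. Of the per-sample columns, 0 belonged to no sample.

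The members and lists were chosen with earlier results of these data known. For each label of a library, UMIs were added up and divided by its nuclear-encoded total. The 13 mitochondrial genes stayed out of the totals. Ratios are log2 with 0.5 UMI added to each sum, and intervals are exact (Poisson for levels, Clopper-Pearson for shares, binomial for ratios), at 95%. A count of 0 enters a fold as 3 counts. Each group was 1 library, so there was no test. Labelled nuclei had a median of 1479 UMIs (thymic) and 966 UMIs (epigonadal), and 10106, 15057 and 16036 fragments in thyAD I, thyAD II and Immune nuclei.

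Named were all 10 members. Of each pathway list the counts were given, with genes chosen from the 2 highest and 2 lowest ratios among those with at least 20 UMIs. For likeness, the 3 closest genes of those with at least 100 labelled UMIs were named, leaving out mitochondrial, ribosomal protein and predicted genes. Alternatives were other scalings (TMM from edgeR 4.0.16 in R 4.3.3, and median of ratios), equal weight per nucleus, free RNA subtracted (the profile of the unlabelled barcodes, scaled by T cell markers), nuclei with at least 1000 UMIs, thinning, other pseudocounts, minimums and label splits, and other chromatin windows, counting and scaling. Python 3.11.15, numpy 2.4.6, pandas 2.3.3, scipy 1.17.1 and matplotlib 3.10.9 were used, and the summing was tested on simulated counts. Promoters came from RefSeq (GRCm38.p6).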

Additional observations from a re-analysis of the deposited data

Results flagged for a closer look

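The thymic over epigonadal ratio of 3 genes had opposite signs in different labels with counting limits clear of 0 in both. Each label is 1 library per depot, and the difference between labels was not tested. Abhd5 had a log2 ratio of 1.985 in Ad I and -2.34 in Ad IIc, the latter from 2 thymic UMIs. Mgll had -1.27 in Ad I and -0.56 in Ad IIa, against 0.44 in Ad IIc. Pde3b had 0.74 in Ad I, against -1.23 in Ad IIa and -2.45 in Ad IIc. Erythroid markers were at 22575 CPM in thymic Ad IIc, where 10 of 10 endothelial markers were higher and 10 of 10 adipocyte markers lower than in epigonadal Ad IIc, and adipocyte markers without Fabp4 were at 523 CPM in thymic Ad IIa and 10466 CPM in epigonadal Ad IIa. The part of these in these signs was not tested.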

How the results depend on the processing

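No paired analysis was possible because each group is 1 library. Of 495 values of single genes under alternatives, 443 moved by less than their counting interval, 51 moved by more and 1 counted as reversed. That was Adrb3 in Ad IIa, from -2.11 to 2.003 with free RNA subtracted, which left it under 10 UMIs. Before subtraction it had 3 thymic and 46 epigonadal UMIs, the latter at 37.2 CPM against 88.7 CPM in the unlabelled epigonadal barcodes. In chromatin a reversal was counted only where the main ratio passed 1.5-fold. The sign change of Lipe with 1 kb around each gene end, given above, is therefore among the 51. The cause was not tested for any change here. In Ad I, 1 gene was at least 2-fold higher in thymus; 2 were with equal weight per nucleus, free RNA subtracted, nuclei with at least 1000 UMIs, a pseudocount of 5, a minimum of 1 UMI, or Ad Ia alone, and 0 with a minimum of 50 UMIs, which leaves 5 genes. Of the 2 lower genes, 1 was counted with a pseudocount of 5 or with nuclei thinned to 500 UMIs, where Adrb3 was at -0.81 and -0.92. It was 3 with TMM or median of ratios scaling, and 2 with equal weight per nucleus, then Mgll and Pnpla2, with Adrb3 at -0.58. In Ad IIa, 2 genes in place of 5 were lower with free RNA subtracted. Over all labels 1 gene, against 0, was higher with equal weight per nucleus or a pseudocount of 5.

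For epigonadal Ad IIc over Ad I, the median of 0.21 was 0.81 with TMM scaling, 0.85 with median of ratios scaling, -0.28 over nuclei with at least 1000 UMIs and 0.78 with a minimum of 1 UMI, and 1 gene in place of 2 was lower under either scaling. The median of all genes moved from -0.40 to 0.20 with TMM there, and from 0.080 to -0.26 in Ad I. Pde3b in Ad I was 0.40 with TMM and 0.17 over nuclei with at least 1000 UMIs. Scaling without nuclear RNAs and ribosomal genes was chosen after seeing the data and gave medians of 0.31 in epigonadal Ad IIc over Ad I and 0.00042 in Ad I. The chromatin median ranged from -0.19 to -0.14 with 0 genes past 1.5-fold. The Ad I median of -0.016 ranged from -0.78 to 0.50 over 12 alternatives. In thymic Ad I, Adrb1 and Adora1 had 2 and 1 UMIs, so any ratio of theirs has wide limits.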
